A study of Mus musculus with 8 samples.

Results

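The Hoxc genes form 1 of the 4 mouse Hox clusters, a run of homeobox genes on chromosome 15. They were taken as all genes with a value whose symbol is Hoxc followed by a number. This gave 9 genes, Hoxc4, Hoxc5, Hoxc6, Hoxc8, Hoxc9, Hoxc10, Hoxc11, Hoxc12 and Hoxc13, out of 22180 genes tested, each with a single probe set. The RNA came from the whole lung of 8 mouse embryos, taken on embryonic day 14.5 and read on 1-colour Affymetrix arrays, 1 per embryo. The 4 mutants carried the Shh-cre driver and 2 floxed copies of Ezh2 (Shh-cre:Ezh2-flox/flox). The 4 controls were labelled Shh-cre control, and these labels name no floxed allele without stating that there was none. All embryos were of a mixed C57BL/6 x 129S6 background. Litters held 2 embryos of a single genotype: controls 1 and 2 came from litter 1, controls 3 and 4 from litter 2, mutants 1 and 2 from litter 3, and mutants 3 and 4 from litter 4. Litter could therefore be treated only as a random block. In the lung, Shh-cre acts in the epithelium, while whole lung RNA also holds mesenchyme, vessels and other cells, so more RNA per cell and more cells of an expressing type cannot be told apart in any value below.

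Hox proteins are transcription factors that give cells a position along the head-to-tail axis. Genes at the 3′ end of a cluster (low numbers) are used early and towards the head, and genes at the 5′ end (high numbers) late and towards the tail. The lung, a product of the anterior foregut, is known for Hoxa and Hoxb genes of low number. Ezh2 is the methyltransferase of the Polycomb repressive complex PRC2, which places methyl groups on lysine 27 of histone H3, and silent Hox clusters are textbook targets of this complex. Comparing the genotypes asks how the expression of Hoxc genes in whole lung differs between Shh-cre:Ezh2-flox/flox embryos and Shh-cre controls.

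The floxed gene was looked at first. Ezh2 itself had log2 values of 11.84, 11.93, 11.83 and 11.89 in controls and 11.80, 11.80, 11.75 and 11.77 in mutants, all below the controls, with a change of −0.09 ± 0.05 (SE) that did not pass. Where its probes lie relative to the floxed exons is not known here, so this value is no check of the deletion. Array medians were 7.05 to 7.12 on the log2 scale. In a principal component analysis of all genes, the leading axis (32.5% of the variance) had control 3 at one extreme and mutant 3 at the other. Xist, expressed in females, was at 6.37 to 6.74 in controls 1 and 2 and mutant 3, and at 12.6 or higher in the other 5 embryos, so the sexes were unequally spread over genotypes and litters.

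Besides the 9 protein-coding genes, the cluster held 3 measured non-coding genes: Hotair, a long antisense RNA, and the microRNA genes Mir196a-2, between Hoxc10 and Hoxc9, and Mir615, within Hoxc5. Mir196a-2 has a counterpart in the Hoxb cluster, Mir196a-1, and the mature miR-196a of both loci is the same over all 22 bases. The hairpins differ, and they are shown because the Hoxb copy rose in mutant lungs while the Hoxc copy did not pass the test, a difference that was not itself tested. The probe set of the Hoxc copy was the dimmer one. RefSeq (build GRCm38.p6) gives Mir196a-2 at chr15:102973350-102973434 and Mir196a-1 at chr11:96265164-96265265, both on the plus strand. Capitals in the hairpins mark the mature 5p arm, and capitals in the mature sequences mark the seed, bases 2 to 8 from the 5′ end.
Mir196a-2 hairpin, Hoxc cluster: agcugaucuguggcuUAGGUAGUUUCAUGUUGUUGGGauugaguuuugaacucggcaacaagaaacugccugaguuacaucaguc
Mir196a-1 hairpin, Hoxb cluster: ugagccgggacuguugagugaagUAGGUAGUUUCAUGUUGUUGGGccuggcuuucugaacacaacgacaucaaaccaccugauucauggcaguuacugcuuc
miR-196a-5p, from either hairpin: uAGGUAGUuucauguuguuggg
miR-615-3p, from Mir615: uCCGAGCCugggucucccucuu

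In mutant lungs Hoxc9 and Hoxc10 rose, and none of the other 7 Hoxc genes passed the test. Hoxc9 was 1.47-fold higher (95% confidence interval 1.31 to 1.65) and Hoxc10 1.29-fold higher (1.16 to 1.42). All 4 mutants also lay above all 4 controls for Hoxc4 and Hoxc6, whose changes of 1.33-fold and 1.36-fold missed the threshold by little (limma adjusted p = 0.0524 and 0.0568). The 3 genes at the 5′ end, Hoxc11, Hoxc12 and Hoxc13, overlapped between genotypes, with log2 changes of −0.03 to 0.19. In limma, with p-values adjusted by Benjamini-Hochberg over all genes and called at 0.05, 2 of 9 Hoxc genes were called higher, against 0.604% of all genes tested, and 0 of 9 lower, against 0.248%. With single embryos left out the count of Hoxc genes called higher was 4 without control 1, 3 without mutant 2, 2 without control 3 and 1 without any other embryo. At an unadjusted p under 0.05 the count was 6 of 9 Hoxc genes, all higher, against 2189 of the 22180 genes, higher and lower together. The groups did not overlap, with mutants higher, for 4 of 9 Hoxc genes, against 4.48% of all genes. They did not overlap, with mutants lower, for 0 of 9 Hoxc genes, against 3.6% of all genes. Neither trait was particular to Hoxc. Of the 27 Hox genes of the other clusters, 9 also had all mutants above all controls, and 10 had an unadjusted p under 0.05 by limma. The median log2 change of the 9 genes was 0.36, and that of all genes was 0.01.

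**Figure D1:**
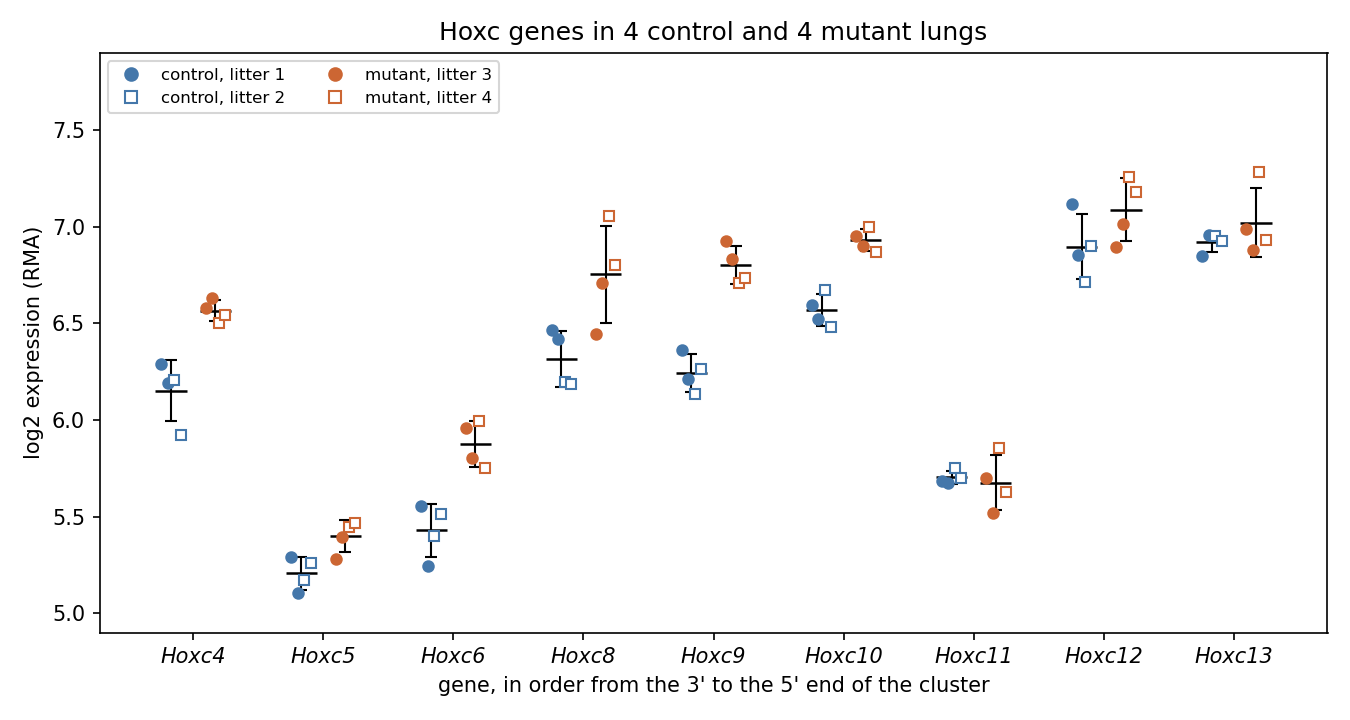
Log2 expression of the 9 Hoxc genes in each of 4 control and 4 mutant lungs, in cluster order. Points are embryos, with filled circles and open squares for the litters of a genotype, and bars give the mean and SD (n = 4). Mutants lie above all controls for Hoxc4, Hoxc6, Hoxc9 and Hoxc10, and the groups overlap for the other 5 genes.

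Values are given as log2 expression from RMA, where a difference of 1 is a doubling. Hoxc9 belongs to the thoracic part of the cluster and is known for setting the identity of thoracic motor neurons. Its log2 values were 6.37, 6.21, 6.13 and 6.26 in controls 1 to 4, and 6.93, 6.83, 6.71 and 6.74 in mutants 1 to 4. The lowest mutant exceeded the highest control by 0.34, more than the range within either group. The log2 change was 0.56 ± 0.07 (SE), and limma gave a Benjamini-Hochberg adjusted p of 0.00487. A two-sided exact permutation test, which treats littermates as independent, gave p = 0.029, the smallest possible with 4 embryos a group. Both mutant litters, with means of 6.88 and 6.72, lay above both control litters, with means of 6.29 and 6.20. Hoxc9 passed in all 27 alternative settings, with log2 changes of 0.48 to 0.64, the fit to the 5 embryos with a high Xist value included. Its highest adjusted p among them, 0.0431 by limma, came with littermates averaged, which leaves 2 litters per genotype.

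Hoxc10, a gene of lumbar levels and of the hindlimb, had log2 values of 6.59, 6.52, 6.67 and 6.48 in controls and 6.95, 6.90, 7.002 and 6.87 in mutants. The groups were separated by 0.20, about as much as the range within the controls. The log2 change was 0.36 ± 0.07 (SE) (limma, Benjamini-Hochberg adjusted p = 0.0298). The call was less stable than that of Hoxc9: it held in 14 of 27 alternatives, with log2 changes of 0.32 to 0.40 and limma adjusted p-values from 0.00922 to 0.158. It ended, for example, without control 2, control 4, mutant 1, mutant 3 or mutant 4 (limma adjusted p = 0.0748, 0.136, 0.0773, 0.0545 and 0.0697) and with the littermates averaged (limma adjusted p = 0.112).

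At the 3′ end, Hoxc4, a gene of cervical levels also known from blood progenitors, had log2 values of 6.29, 6.19, 6.21 and 5.92 in controls and 6.58, 6.63, 6.51 and 6.55 in mutants. The mutants were close together and the spread came from control 4, the lowest embryo. The log2 change was 0.41 ± 0.08 (SE) (limma, Benjamini-Hochberg adjusted p = 0.0524). Hoxc6, a gene of the cervical to thoracic transition, had log2 values of 5.55, 5.25, 5.40 and 5.52 in controls and 5.96, 5.81, 5.99 and 5.75 in mutants. Every mutant again exceeded every control. Its log2 change was 0.45 ± 0.09 (SE) (limma, Benjamini-Hochberg adjusted p = 0.0568). Over the alternatives Hoxc4 passed in 5 of 27 and Hoxc6 in 6 of 26, and both were positive in all of them.

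Hoxc5 lies between these genes, and its probe set gave the lowest signal of the 9. Its log2 values were 5.29, 5.10, 5.17 and 5.26 in controls and 5.28, 5.40, 5.45 and 5.47 in mutants. Mutant 1 fell within the controls and the other 3 mutants lay above them. The change of 0.19 ± 0.07 (SE) did not pass (limma, Benjamini-Hochberg adjusted p = 0.39), with a 95% confidence interval of 0.04 to 0.35. Transcripts of Hoxc4, Hoxc5 and Hoxc6 are known to overlap, and the probe positions were not analysed here, so signal shared between these 3 probe sets cannot be told apart from separate changes.

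Hoxc8, known for patterning the brachial spinal cord and the thoracic skeleton, showed the widest spread. Its log2 values were 6.47, 6.42, 6.20 and 6.19 in controls and 6.45, 6.71, 7.06 and 6.80 in mutants. Litters stood apart within each genotype, with means of 6.44 and 6.19 for the control litters and 6.58 and 6.93 for the mutant litters, and mutant 1 lay among the controls. The log2 change of 0.44 ± 0.12 (SE) was close to those of Hoxc4 and Hoxc6 and did not pass (limma, Benjamini-Hochberg adjusted p = 0.201). It passed in 2 of 27 alternatives. Without litter 3 the change was 0.61, and without litter 4 it was 0.26.

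At the 5′ end, Hoxc11, a gene of posterior levels and the hindlimb, had log2 values of 5.68, 5.67, 5.75 and 5.70 in controls and 5.70, 5.52, 5.86 and 5.63 in mutants. The mutants spread to both sides of the controls. The 95% confidence interval of its change was −0.20 to 0.15 (limma, Benjamini-Hochberg adjusted p = 0.947). Hoxc12, another posterior gene, had log2 values of 7.12, 6.86, 6.71 and 6.90 in controls and 6.90, 7.02, 7.26 and 7.18 in mutants. Only mutants 3 and 4 exceeded all controls, and the interval of the change was −0.04 to 0.42. Hoxc13, a regulator of hair keratins, had log2 values of 6.85, 6.96, 6.96 and 6.93 in controls and 6.99, 6.88, 7.28 and 6.93 in mutants. Mutant 3 stood above the rest, the interval was −0.10 to 0.30, and without mutant 3 the change went from 0.10 to 0.01.

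Along the cluster the 6 genes from Hoxc4 to Hoxc10 had log2 changes of 0.19 to 0.56 with a median of 0.43, and the 3 genes from Hoxc11 to Hoxc13 had −0.03 to 0.19 with a median of 0.10. Whether the ends of the cluster differ was not tested as such. Hotair, which lies between Hoxc12 and Hoxc11, had log2 values of 6.13, 6.14, 6.08 and 5.97 in controls and 6.04, 6.14, 6.34 and 6.29 in mutants, with overlapping groups and a change of 0.12 ± 0.08 (SE). Mir615 had log2 values of 6.02, 5.89, 5.80 and 5.76 in controls and 6.01, 5.92, 6.27 and 5.84 in mutants, with only mutant 3 above all controls and a change of 0.14 ± 0.10 (SE). Neither passed (limma, Benjamini-Hochberg adjusted p = 0.686 and 0.732).

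Mir196a-2, whose hairpin is printed above and which lies between the 2 called genes, had log2 values of 4.72, 4.97, 4.70 and 4.62 in controls and 4.67, 4.68, 4.56 and 4.71 in mutants. The groups overlapped, and the change was −0.10 ± 0.08 (SE), with a 95% confidence interval of −0.28 to 0.09 (limma, Benjamini-Hochberg adjusted p = 0.782). Its control mean of 4.75 was below that of every Hoxc gene. It stood 8.5% of the way up the ranking of all genes, against 20.7% for Mir196a-1, so a change at this locus could have been missed. Mir196a-1 of the Hoxb cluster, with the same mature sequence, had log2 values of 5.95, 5.67, 5.75 and 5.86 in controls and 7.45, 7.47, 7.52 and 7.56 in mutants. All mutants lay far above all controls, and the change was 1.69 ± 0.07 (SE). The labelling was primed with poly(T), so these probe sets are read here as signal from the 2 loci and not as mature miR-196a.

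**Figure D2:**
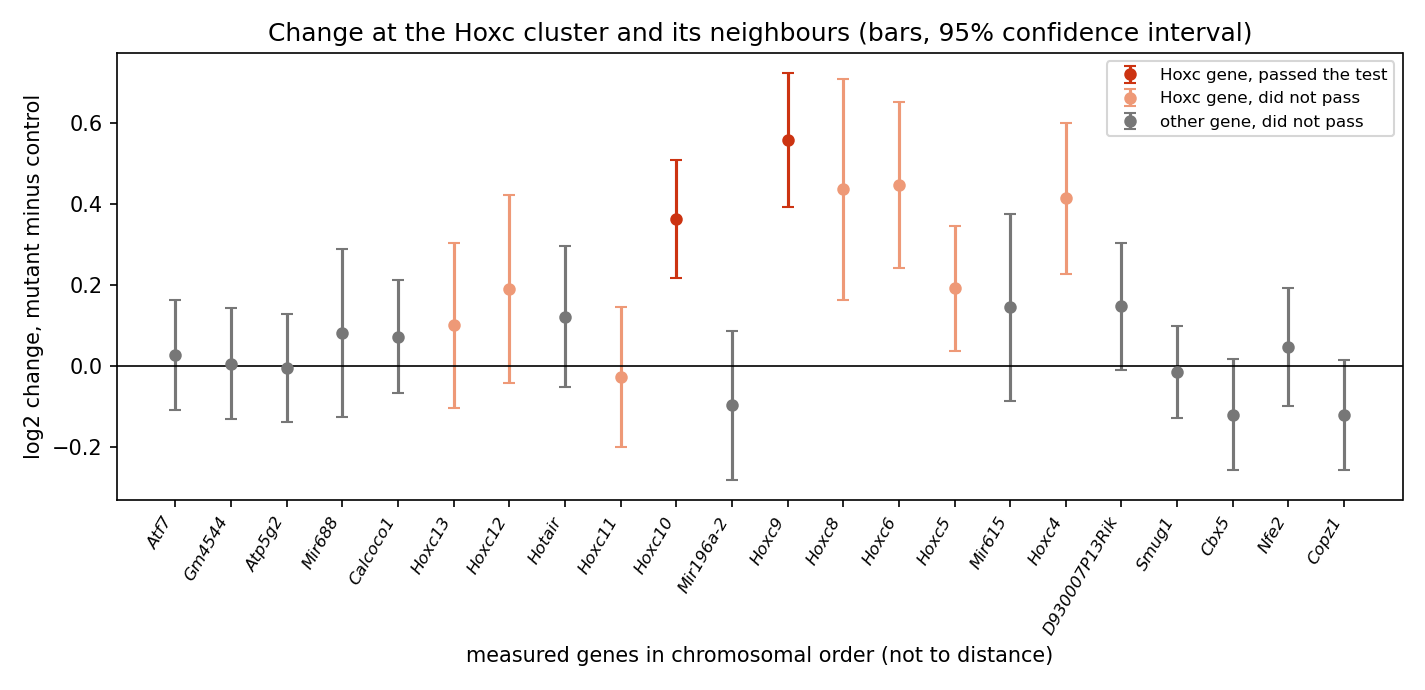
Log2 change (mutant minus control, with its 95% confidence interval) of the 22 measured genes from Atf7 to Copz1 in chromosomal order, drawn at equal spacing. Hoxc9 (0.56) and Hoxc10 (0.36) passed the test, and the 10 flanking genes lie between −0.12 and 0.15.

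None of the 5 nearest measured genes on either side of the cluster passed by limma, and none had an unadjusted p under 0.05. On the side of Hoxc13 these were Calcoco1, Mir688, Atp5g2, Gm4544 and Atf7, and on the side of Hoxc4 D930007P13Rik, Smug1, Cbx5, Nfe2 and Copz1. Their log2 changes ran from −0.12 to 0.15 with a median of 0.02. The long non-coding RNA D930007P13Rik, the first of them beyond Hoxc4, was the 1 flanking gene without overlap, with control and mutant means of 5.89 ± 0.05 and 6.04 ± 0.11 (SD, n = 4) (limma, Benjamini-Hochberg adjusted p = 0.544). The log2 change of Cbx5, which encodes the heterochromatin protein HP1 alpha, was −0.12 ± 0.06 (SE) and did not pass.

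Every Hoxc gene was dim. The mean log2 value in controls ran from 5.21 for Hoxc5 to 6.92 for Hoxc13, or 13.1% to 40.0% of the way up the ranking of all genes. By position the control means were 6.15 ± 0.16 for Hoxc4, 5.21 ± 0.09 for Hoxc5, 5.43 ± 0.14 for Hoxc6, 6.32 ± 0.15 for Hoxc8, 6.24 ± 0.10 for Hoxc9, 6.57 ± 0.08 for Hoxc10, 5.70 ± 0.03 for Hoxc11, 6.90 ± 0.17 for Hoxc12 and 6.92 ± 0.05 for Hoxc13 (SD, n = 4). The values came without detection calls and each gene was read by its own probe set, so this order describes probe set signals and is no ranking of transcripts, and no level was read as absence. In the order of signal in controls, the neighbours Hoxc5 and Hoxc6, Hoxc4 and Hoxc9, Hoxc9 and Hoxc8, and Hoxc12 and Hoxc13 overlapped over the embryos, and the other neighbours did not. In mutants the order was Hoxc5, Hoxc11, Hoxc6, Hoxc4, Hoxc8, Hoxc9, Hoxc10, Hoxc13 and Hoxc12, in which Hoxc5 stood apart from Hoxc11, Hoxc6 stood apart from Hoxc4, and the other neighbours overlapped.

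Dim genes were read as a group, with no test of it. Among 5956 genes whose mean over the 8 arrays lay in the range of the Hoxc genes, 68.2% had a positive log2 change, against 52.9% of all genes, and the median change was 0.04. Of these genes 0.621% were called higher, and 4.25% had all 4 mutants above all 4 controls. Their median level was 6.20 to 6.27 in controls and 6.21 to 6.34 in mutants. Mutants 1 and 2 lay within the range of the controls, and mutants 3 and 4, at 6.34 and 6.29, above it. With the arrays shifted to the same median of these genes, Hoxc9 changed by 0.52 and still passed (limma, Benjamini-Hochberg adjusted p = 0.0186), while Hoxc10 changed by 0.32 and did not (limma adjusted p = 0.141). Mutant 3 was also the embryo with the highest value of all 8 for 6 of the 9 Hoxc genes, though not for Hoxc9, Hoxc4 or Hoxc5. Over the 7 genes that were not called it averaged 6.49, against 6.27 to 6.33 in the other mutants and 6.06 to 6.18 in controls. Without mutant 3, Hoxc9 changed by 0.59 and Hoxc8 by 0.34.

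Set against their paralogues, the genes of the same number in the other clusters, Hoxc4, Hoxc5 and Hoxc6 stood beside Hoxa and Hoxb genes with brighter probe sets. Hoxa4 and Hoxb4 had log2 changes of 0.06 and 0.12. Hoxa5 and Hoxb5 had 0.02 and 0.18, and Hoxa6 had 0.16. None of these 5 passed, while Hoxb6 rose by 0.38. In group 8, Hoxd8 had a change of 0.46 and Hoxb8 of 0.15, neither of which passed.

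In group 9 the Hoxb member changed most. Hoxb9 rose by 1.26 ± 0.09 (SE), Hoxc9 by 0.56, and Hoxa9 and Hoxd9 had changes of 0.35 and 0.11 that did not pass. In group 10, Hoxa10 rose by 0.58 and Hoxc10 by 0.36, and Hoxd10 had a change of 0.11. In groups 11 and 12 the changes of Hoxd11 and Hoxd12 were 0.06 and 0.13. In group 13, Hoxb13 rose by 0.39, and Hoxa13 and Hoxd13 had 0.07 and 0.20, which did not pass. By cluster, 2 of 9 Hoxc genes were called, against 1 of 9 Hoxa, 4 of 10 Hoxb and 0 of 8 Hoxd genes, with median log2 changes of 0.36, 0.07, 0.19 and 0.12 in that order. All of these calls were higher, against 0.604% of all genes. The mutants lay above all controls for 4 of 9 Hoxc, 2 of 9 Hoxa, 5 of 10 Hoxb and 2 of 8 Hoxd genes, against 4.48% of all genes. Differences between clusters were not tested.

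**Figure D3:**
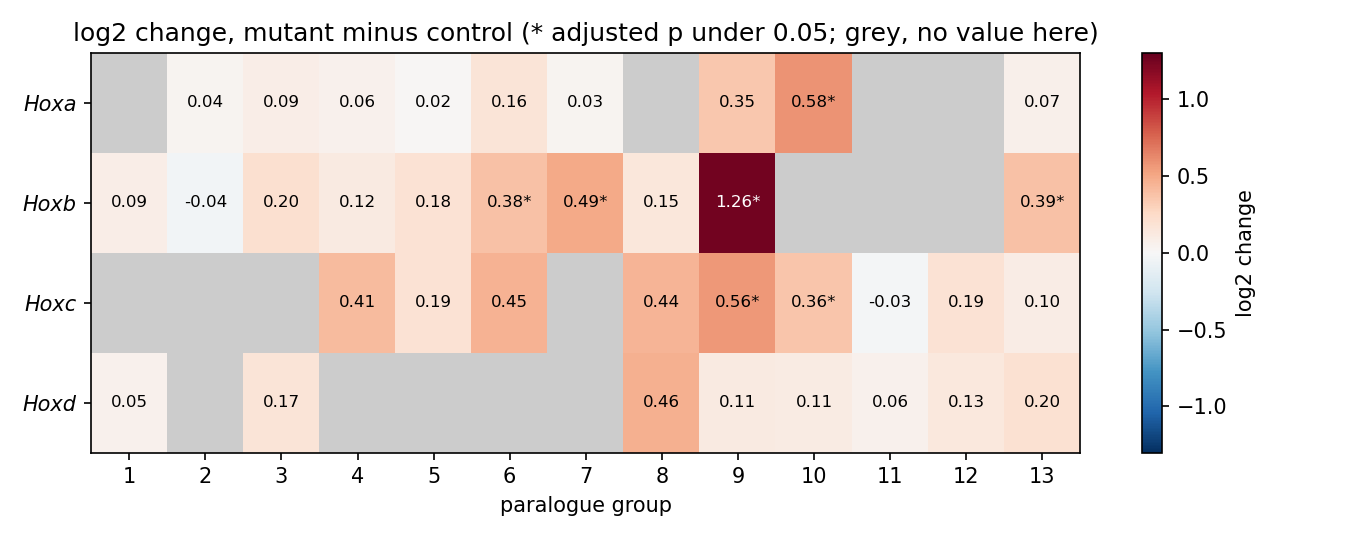
Log2 change (mutant minus control) of 36 Hox genes by cluster (rows) and paralogue group (columns). Asterisks mark an adjusted p under 0.05 by limma. The row of Hoxc runs from 0.41 for Hoxc4 to 0.10 for Hoxc13, with its highest value, 0.56, at Hoxc9.

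By level, all 9 Hoxc genes were among the 28 Hox genes with a control mean under 8, of which 7 were called higher. Over all genes tested, 0.604% were called higher. Of the 8 Hox genes at 8 and over, all in Hoxa or Hoxb, 0 were called and the log2 changes ran from −0.04 to 0.20. RMA is known to draw changes of dim genes towards 0, so the folds given here are not corrected for that.

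**Figure D4:**
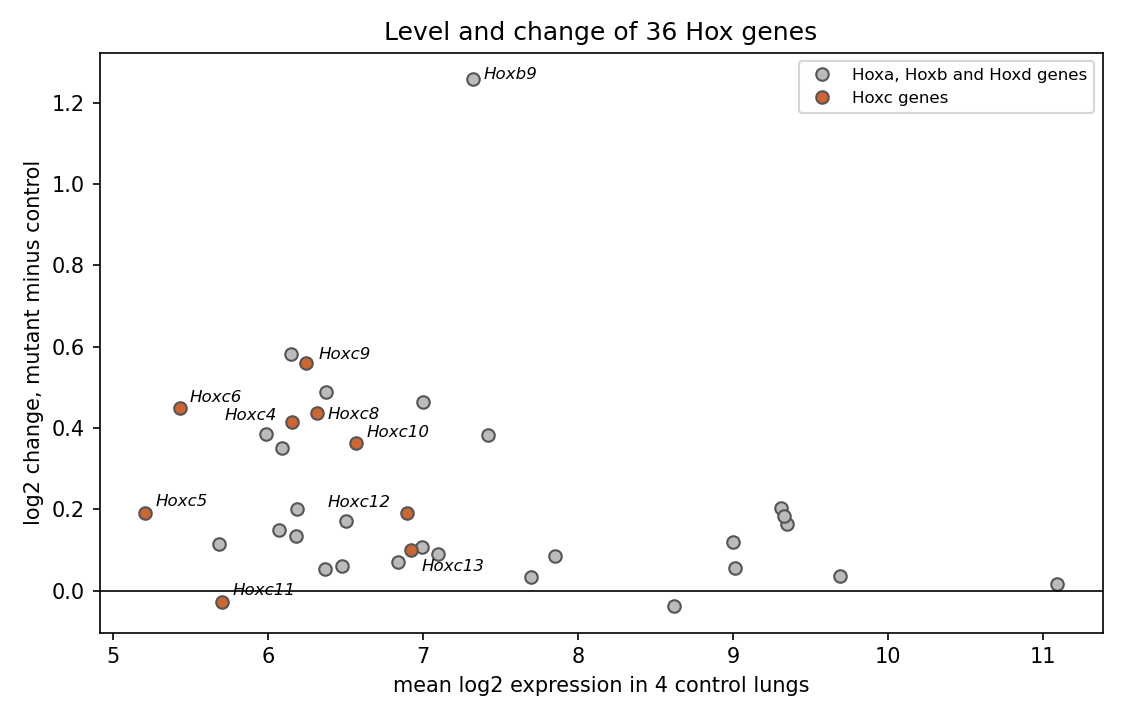
Mean log2 expression in 4 control lungs against the log2 change in mutants for 36 Hox genes, with the Hoxc genes named. The Hoxc genes lie between 5.21 and 6.92 on the horizontal axis, and Hoxb9 has the highest change, 1.26.

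Genes of the machinery that acts on Hox clusters were read beside them. Of 12 PRC2 genes, 17 genes of the partner complex PRC1, 10 genes of H3K27 demethylases and the activating trithorax group, and 14 upstream regulators of Hox genes such as Cdx and retinoic acid genes, 0 passed in each list by limma, and 1, 4, 0 and 2 of them had an unadjusted p under 0.05. By comparison, 2189 of the 22180 genes tested were under that unadjusted level, in either direction, and 0.604% of all genes were called higher and 0.248% lower. The median log2 changes of the 4 lists were −0.01, 0.02, 0.005 and 0.02. Among 8 TALE homeobox genes, whose products bind DNA together with Hox proteins, Meis2 rose by 0.30 ± 0.06 (SE) and 7 did not pass.

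Hoxc genes are also used in tissues that a dissected lung could carry, so marker lists were read beside them. Lung markers were high in every embryo, with none of the 10 epithelial and 10 mesenchymal genes below the median of all genes. Of the 10 epithelial genes, 8 had a negative log2 change, with a list median of −0.15, and 5 had an unadjusted p under 0.05. Foxa1 fell by 0.56 on the log2 scale and was the 1 that passed. All mutants also lay below all controls for Etv5, Epcam and Foxa2, at log2 changes of −0.33, −0.26 and −0.20, none of which passed (limma, Benjamini-Hochberg adjusted p = 0.0611, 0.139 and 0.342). The summed level of the epithelial list, as log2 of summed linear values, was 14.49 to 14.72 in controls and 14.49 to 14.59 in mutants. Such a sum is carried by the brightest genes. Here these were Sftpc and Id2, at control means of 12.85 and 12.26. They were also the 2 genes with a positive log2 change, 0.08 and 0.12, so the sum says little about the other 8. Of the 10 mesenchymal genes 7 had a positive change, 0 passed by limma and 1 had an unadjusted p under 0.05. All mutants lay above all controls for Pdgfra and Col1a1, at log2 changes of 0.21 and 0.25. Over all genes, 4.48% had all mutants above all controls and 3.6% all mutants below, and 0.604% were called higher and 0.248% lower. An unadjusted p under 0.05 was found for 2189 of 22180 genes, in either direction. The summed level of the mesenchymal list was 14.68 to 14.75 in controls and 14.74 to 14.80 in mutants. The summed level also overlapped between genotypes for heart, skeletal muscle and body wall, kidney and gonad ridge, and liver. In the kidney and gonad list the sum was carried by Osr1, at a control mean of 10.66 and a log2 change of 0.01. It says little about the dimmer genes of that list. Of the 9 kidney and gonad genes 8 had a positive change and 3 an unadjusted p under 0.05, Pax2, Sall1 and Pax8, all 3 without overlap. Pax2 rose by 0.70, while Sall1 and Pax8, with log2 changes of 0.43 and 0.19, did not pass. Of the 10 heart genes, all 10 had a positive change with a median of 0.13, and 0 passed by limma. Nkx2-5, with a change of 0.30 and no overlap, was the 1 heart gene at an unadjusted p under 0.05. Ryr2, with a change of 0.14, did not overlap either. In muscle and liver 0 passed by limma, and the unadjusted counts were 1 and 0.

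For 3 lists the summed level of all mutants lay above that of all controls. For epidermis and oesophagus it was 10.28 to 10.36 in controls and 10.59 to 10.76 in mutants. Here 3 of 10 genes were called higher, Krt4, Pax9 and Krt17, against 0.604% of all genes. The rest of this list had log2 changes of −0.02 to 0.15, and none of them passed. For limb and skin mesenchyme the summed level was 10.62 to 10.89 in controls and 10.99 to 11.16 in mutants. Here 1 of 9 genes was called, Tbx15, which rose by 2.48 on the log2 scale, against 0.604% of all genes called higher. The list was mixed, with 6 of 9 genes positive and 3 at an unadjusted p under 0.05 by limma. Besides Tbx15 these were Msx2, higher by 0.37, and Twist2, lower by 0.34, and neither was called. For the rest of the list the change lay between −0.02 and 0.16. Without Tbx15 the summed level of this list overlapped, at 10.58 to 10.845 in controls and 10.71 to 10.91 in mutants. For neurons and spinal cord the summed level was 9.75 to 9.96 in controls and 10.03 to 10.14 in mutants, with 0 of 9 genes called. At an unadjusted p under 0.05 were 2 genes, Isl1 and Stmn2, with log2 changes of 0.60 and 0.25. The rest of the list had changes of −0.12 to 0.18. In this list 7 of the 9 genes lay below the median of all genes. The skeletal muscle list, with all 10 genes below that median, was at 9.96 to 10.11 in controls and 9.98 to 10.17 in mutants. The part of these tissues, and of the lower values of epithelial markers, in the Hoxc values was not tested.

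By Pearson correlation over the 8 arrays, the genes most like the mean profile of the 9 Hoxc genes were Bmp8b (r = 0.99), Itgb4 (0.98), Adgb (0.98), Oit1 (0.97) and Klhdc8a (0.97). Of these, Itgb4 and Oit1 were called, with log2 changes of 0.53 and 0.64, and any gene that is higher in mutants shares that step with the profile. After removal of the genotype means the 5 most alike were Syt4, V1ra8, Il17f, Slc22a16 and Tas1r1, with r of 0.98 to 0.99 and log2 changes of −0.05 to 0.08. The 2 sets share 0 genes. Each set holds the highest r among all genes over only 8 arrays, so high values follow in part from that choice. Whether these genes vary with the Hoxc genes beyond that was not tested. Among the 36 pairs of Hoxc genes the median r was 0.63 over the values and 0.17 after removal of the genotype means, where 22 of 36 pairs were positive.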

How the data were processed

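Per the submitters' processing notes, the authors made the deposited log2 values, 1 per probe set and array, with RMA from the package oligo. No version or option is given in these notes. RMA equalizes the arrays, so a shift common to most genes cannot be seen. Of 41345 probe sets, 23521 carried a single symbol in the annotation given for the platform, 1814 several and 16010 were not listed. The probe set with the highest mean represented each gene, giving 22180 genes. RefSeq tables of GRCm38.p6, in which all 9 Hoxc genes matched by gene number, gave gene order and microRNA sequences, and no other coordinates were used.

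Genotypes were fitted in limma 3.58.1 (R 4.3.3). Litter was a random block with an estimated correlation of 0.153, variances were moderated by empirical Bayes, and two-sided p-values were adjusted over all genes, with a threshold of 0.05. The code was tested on simulated data. Exact permutation tests used scipy 1.17.1. The members, gene lists and alternatives were chosen with earlier results of these data known. Genes named beyond the Hoxc genes are the other measured genes of the cluster, the 5 nearest measured genes on either side, paralogues, Mir196a-1 as the counterpart of Mir196a-2, called genes of the marker and regulator lists, and the 5 genes most like the mean Hoxc profile. Some marker genes that did not pass are named as well. Same-numbered embryos did not deviate together (correlations from −0.27 to 0.03), so the numbers do not pair embryos. The number of arrays and the 2 litters per genotype limit the precision.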

Additional observations from a re-analysis of the deposited data

Results flagged for a closer look

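For the 9 Hoxc genes in both genotypes, 18 groups of 4 values, 0 groups had a highest or lowest embryo whose gap to the next exceeded Dixon's critical value, where chance would give 0.9. With 4 values this needs a gap of most of the range, so it does not show that no embryo stood apart: control 4 for Hoxc4 and mutant 3 for Hoxc13 lay away from the other 3 of their groups.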

How the results depend on the processing

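Hoxc9 passed in all 27 alternatives, and no Hoxc gene was called lower in any. The direction of each Hoxc gene held, except for Hoxc11, whose log2 change of −0.03 ran from −0.0875 (without mutant 3) to 0.0249 (without mutant 2) over the embryos left out and was 0.0393 without litter 3, and Hoxc13, at −0.00691 among the 5 embryos with a high Xist value. Against 2 Hoxc genes called higher, and 134 higher and 55 lower of all genes, the count of Hoxc genes was 4 without the litter block (95 of all genes lower). It was 1 with littermates averaged (65 and 33 of all genes) and 1 without litter 4 (75 and 23). Without litter 1 it was 2, with 90 of all genes lower. It was 1 with every probe set tested (34 lower), 1 with arrays shifted to the same median and again 1 for the 5 embryos high in Xist (79 higher). With the Xist level as a covariate it was 5, adding Hoxc4, Hoxc6 and Hoxc8, with 361 and 313 of all genes. Over the embryos left out one at a time it ran from 1 (without control 2, control 4, mutant 1, mutant 3 or mutant 4) to 4 (without control 1), with 73 to 157 of all genes higher and 28 to 75 lower. All alternatives were chosen with earlier results of these data known, and 2 were added beyond the planned ones. The first of these left out control 3 and mutant 3, and the count of Hoxc genes stayed at 2. The other shifted the arrays to the same median of genes at the Hoxc level, and the count was 1 (84 of all genes higher). With the replicate number as a block the count was 3, with 140 and 55 of all genes, and the numbers pair no embryos. Hoxc5, Hoxc6 and Hoxc11 were too dim for the fit restricted to genes with a mean of at least 6. RMA compresses dim signals, and no detection calls were at hand.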
